A study of Homo sapiens with 8 samples.

Results

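The 10 genes described here encode the eIF4 translation initiation factors that bind the mRNA cap or work with the cap complex, and the proteins that hold the cap-binding factor in check. They are the cap-binding proteins EIF4E and EIF4E2, the 4E-binding proteins EIF4EBP1 and EIF4EBP2, the RNA helicases EIF4A1 and EIF4A2 with their cofactor EIF4H, and the scaffolds EIF4G1, EIF4G3 and EIF4G2. They were chosen by gene symbol, with earlier results of these data known. They are 10 of the 56269 genes tabulated, and all 10 were present for both cell lines. All 10 also reached 1 TPM (a transcript abundance corrected for transcript length and library total) in at least 2 of 8 libraries, the minimum that 16060 genes passed. RNA-seq was performed on SNU1079 and SSP25, established human cholangiocarcinoma (CCA) cell lines, after 48 h with 1 of 4 treatments. Vehicle was 0.01% DMSO. BETp was the BET degrader ARV825 at 40 nM, which recruits BET proteins to a ubiquitin ligase. mTORi was AZD8055 at 50 nM, an ATP-competitive inhibitor of the mTOR kinase. BETp + mTORi was both agents, with doses that the labels do not state. There was 1 library for each line and treatment. For comparisons with vehicle the lines acted as the replicates, and for the difference between the lines the 4 treatments did. For drug effects averaged over the other drug, libraries with and without that other drug served as replicates too. The p-values measure the spread between these libraries only. The values keep no read depth, so no counting error could be attached to them.

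The cell type of the lines was checked on marker genes. The keratins KRT7, KRT19, KRT8 and KRT18, which biliary epithelium expresses, were abundant in every library. They lay at 1167 to 3746 TPM in SNU1079 and 293 to 1035 TPM in SSP25. The hepatocyte markers ALB and APOA1 stayed at or under 0.21 TPM in both lines. TTR, also a hepatocyte marker, lay between 0.28 and 2.23 TPM in SNU1079 and at 0 in SSP25. The endothelial marker PECAM1 reached at most 0.49 TPM. SOX9, a biliary transcription factor, was lower in SNU1079 than in SSP25, unlike the keratins, with 5.72 to 9.32 TPM in SNU1079 and 19.6 to 28.6 TPM in SSP25. The epithelial marker EPCAM lay between 59.7 and 101 TPM in SNU1079 but only between 0.90 and 1.74 TPM in SSP25, where it was nearly absent. The collagen gene COL1A1, a fibroblast marker, lay between 272 and 1003 TPM in SNU1079 and between 0.91 and 2.16 TPM in SSP25, while the other fibroblast marker, DCN, and the immune marker PTPRC stayed under 0.25 TPM in both lines. Transcripts of the mitochondrial genome took 14.4% to 19.2% of the total in SNU1079 and 5.99% to 10.1% in SSP25. The median tested gene was shifted by -0.08 (BETp), -0.11 (mTORi) and -0.19 (BETp + mTORi) on the log2 scale. Quantile normalization set these shifts to about 0.00, so differences from the median gene are given below where they matter.

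Most cellular mRNAs carry a methylated guanosine cap, which eIF4E binds. eIF4E joins the scaffold eIF4G and the helicase eIF4A in the eIF4F complex, which unwinds the start of the mRNA and brings in the small ribosomal subunit. The 4E-binding proteins compete with eIF4G for eIF4E. mTOR complex 1 phosphorylates them and so releases eIF4E, which is why these proteins are standard readouts of mTOR inhibition. That control acts on phosphorylation, which RNA-seq does not see. The data below concern only the mRNA levels of these genes.

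The promoters of 3 of the 10 genes share the E-box CACGTG, the letters through which the transcription factor MYC is known to act, and they are shown because BET proteins are known regulators of MYC transcription and MYC mRNA was measured in the same libraries. Promoter sequences were those of RefSeq on GRCh38.p14, searched over the 250 bases before each annotated start. Entries existed for 9 of the 10 genes, all but EIF4EBP1, in 14 windows. CACGTG, which reads the same on both strands, was present in 3 of these windows, against 6.34% of all 35116 promoter windows of that length. EIF4E held it 225 and 72 bases before its start (chr4:98929134-98929383, minus strand). EIF4G1 held it 144 and 67 bases before the most upstream of its 3 starts (chr3:184314356-184314605, plus strand) and not before the other two. EIF4H held it 199 bases before its start (chr7:74174106-74174355, plus strand). Each line below gives those 250 bases from 5′ to 3′ on the gene's strand, with the E-box in capitals.
EIF4E: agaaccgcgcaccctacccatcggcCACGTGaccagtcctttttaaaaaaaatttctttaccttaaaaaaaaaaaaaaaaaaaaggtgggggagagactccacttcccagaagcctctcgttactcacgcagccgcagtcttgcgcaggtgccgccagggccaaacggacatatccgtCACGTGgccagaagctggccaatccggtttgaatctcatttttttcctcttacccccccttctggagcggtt
EIF4G1: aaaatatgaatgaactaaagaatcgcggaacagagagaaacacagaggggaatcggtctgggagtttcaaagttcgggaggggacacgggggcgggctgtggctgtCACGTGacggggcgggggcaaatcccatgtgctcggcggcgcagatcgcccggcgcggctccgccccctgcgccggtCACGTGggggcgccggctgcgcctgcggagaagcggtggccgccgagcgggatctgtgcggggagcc
EIF4H: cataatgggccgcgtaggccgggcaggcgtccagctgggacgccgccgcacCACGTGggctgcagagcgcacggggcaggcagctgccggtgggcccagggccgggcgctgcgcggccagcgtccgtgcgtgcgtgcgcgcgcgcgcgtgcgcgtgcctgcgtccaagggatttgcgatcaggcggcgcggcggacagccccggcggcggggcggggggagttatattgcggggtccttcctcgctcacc
A match of letters is a description of the sequence and does not show that a factor binds there. After the mean of each line was subtracted, log2 levels correlated at r = 0.91 between EIF4G1 and EIF4H, at 0.90 between EIF4E and EIF4H and at 0.77 between EIF4E and EIF4G1, over the same 8 libraries. Other pairs were as close, with 0.91 between EIF4E and EIF4EBP1 and 0.86 between EIF4G1 and EIF4G3. EIF4G3 lacked the motif and EIF4EBP1 could not be searched. MYC mRNA measured 121, 98.1, 149 and 124 TPM in the vehicle, BETp, mTORi and combination libraries of SNU1079, and 41.8, 31.6, 44.3 and 43.8 TPM in SSP25 in the same order. It was lower with BETp than without it in all 4 pairs, although the mTORi and combination libraries of SSP25 were nearly level. Its averaged difference was -0.24 ± 0.08 (SE, n = 8 libraries) for BETp and 0.30 ± 0.08 for mTORi, and neither passed the test (limma adjusted p = 0.126 and 0.0840). The averaged differences of EIF4E, EIF4G1 and EIF4H were -0.13, 0.01 and -0.02 for BETp and -0.29, -0.22 and -0.13 for mTORi, none passing. Between the lines MYC was lower in SSP25, at -1.58, and these 3 genes were higher there, at 0.23, 0.57 and 0.66. A part of MYC in the levels of these genes was not tested.

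The levels of the 10 genes spanned a wide range within each library, and because TPM is corrected for length they can be set side by side. EIF4A1, the main helicase of eIF4F, was the most abundant in all 8 libraries, at 1243 ± 86.9 TPM in SNU1079 and 1094 ± 101 TPM in SSP25 (mean ± SD over the 4 treatments), and ranked above 99.2% of all tested genes by its mean. In SNU1079 it was followed by EIF4A2, EIF4G2, EIF4H and EIF4G1, at means of 277, 225, 223 and 179 TPM. EIF4A2 overlapped with EIF4G2 and EIF4G2 with EIF4H, whereas EIF4G1 lay below EIF4H without overlap. EIF4EBP1 came next at 112 ± 29.0 TPM and overlapped with EIF4E2 at 72.4 ± 11.3 TPM, which in turn overlapped with EIF4E at 64.9 ± 8.34 TPM. EIF4G3 and EIF4EBP2 were lowest, at 20.5 ± 3.08 and 18.3 ± 3.11 TPM, and their ranges overlapped.

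The order differed in SSP25. EIF4G2 stood second there at 499 ± 57.2 TPM, clear of EIF4H at 353 ± 19.8 TPM, which was clear of EIF4G1 at 265 ± 18.3 TPM. EIF4G1, EIF4A2 (242 ± 27.6 TPM) and EIF4EBP1 (190 ± 53.2 TPM) followed, each overlapping with the next. EIF4E and EIF4E2 overlapped at 76.5 ± 12.3 and 69.7 ± 5.09 TPM. EIF4G3 at 50.2 ± 3.82 TPM was clear of both neighbours, and EIF4EBP2 was again lowest at 17.8 ± 2.43 TPM. EIF4EBP1 varied most across treatments in both lines, with a coefficient of variation of 25.9% in SNU1079 and 28.0% in SSP25, while EIF4H had the lowest coefficient in both. Together the 10 mRNAs made up 0.238% to 0.251% of the TPM total in SNU1079 and 0.263% to 0.307% in SSP25.

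**Figure D1:**
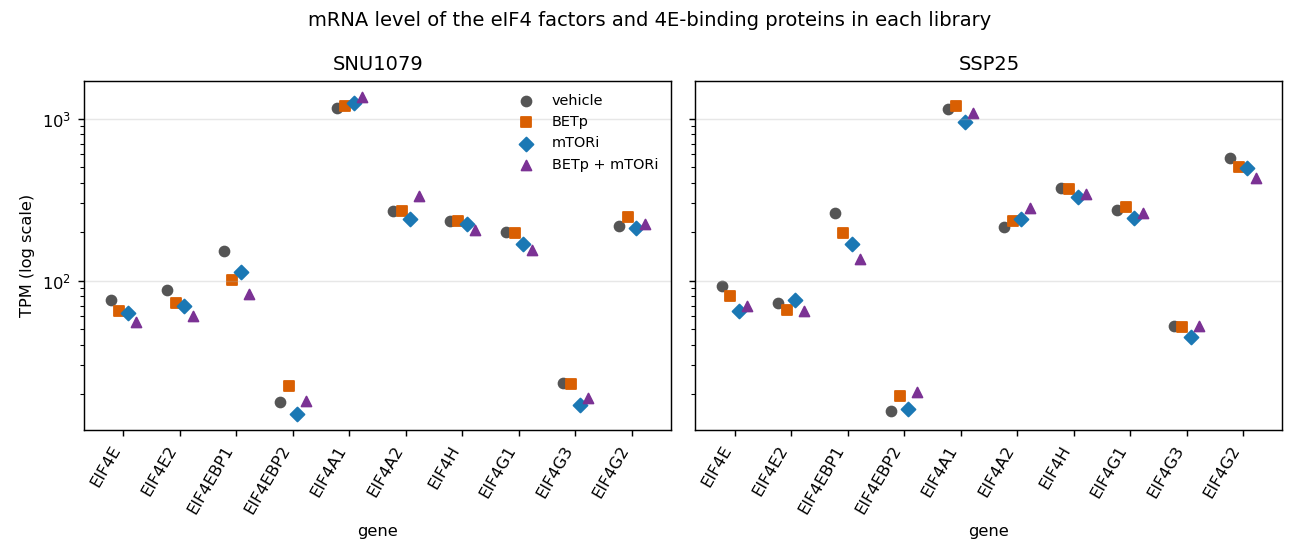
mRNA level of each gene (TPM, log axis) in the SNU1079 and SSP25 libraries, 1 point for each treatment, with genes ordered by role. EIF4A1 was highest in every library at 955 to 1360.4 TPM, and the points of EIF4EBP1 spread more than those of the other genes, between 82.8 and 151 TPM in SNU1079 and between 136 and 261 TPM in SSP25.

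The effect of each drug was first asked over all 8 libraries, with 4 that received the drug and 4 that did not, balanced over the other drug and the line. BETp averaged in this way changed 1 of the 10 genes, EIF4EBP1, against 1.82% of all tested genes (0.461% higher and 1.36% lower), and mTORi averaged in this way also changed 1 of 10, again EIF4EBP1, against 1.05% (0.162% higher and 0.884% lower; limma on log2(TPM + 1), two-sided, Benjamini-Hochberg adjusted p under 0.05). The scale of log2(TPM + 1) understates changes of low genes, strongly for those under about 1 TPM. All values given as differences below are on this scale with the SE of the model. The median difference of the 10 genes was -0.01 for BETp and -0.14 for mTORi, beside -0.08 and -0.11 over all tested genes. Under BETp, EIF4EBP1 and EIF4E2 were lower in all 4 pairs of libraries that differ only in that drug, as were 23.2% of tested genes, and EIF4EBP2 and EIF4A1 were higher in all 4, as were 8.88%. Under mTORi, EIF4E, EIF4EBP1, EIF4G1, EIF4G2 and EIF4H were lower in all 4 pairs, as were 26.2% of tested genes, and none of the 10 was higher in all 4, as were 4.59%.

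**Figure D2:**
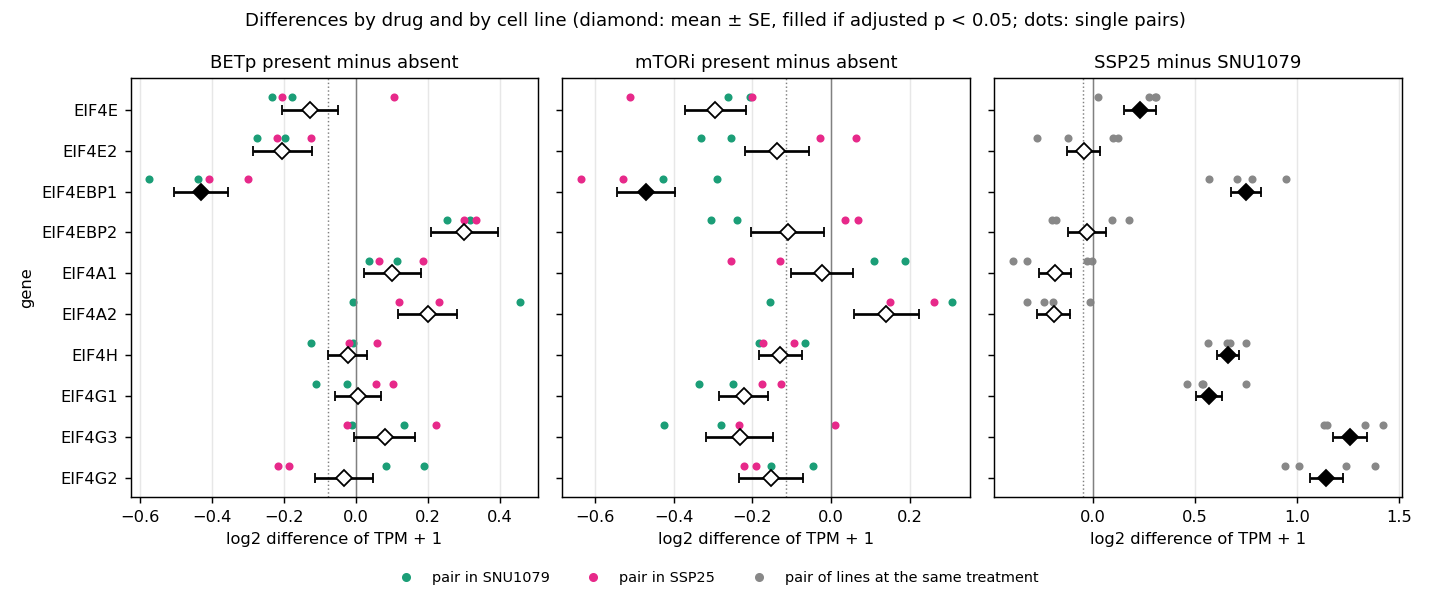
Log2 difference of TPM + 1 for BETp, for mTORi and between the lines. Diamonds are model means with SE (filled where the adjusted p was under 0.05), dots are single pairs of libraries, the solid line marks 0 and the dotted line the median of all tested genes. For both drugs the only filled diamond is EIF4EBP1, at -0.43 and -0.47, while 6 genes are filled between the lines.

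EIF4EBP1 encodes 4E-BP1, the best known repressor of eIF4E and a direct substrate of mTOR complex 1 (GRCh37 chromosome 8, 37888052 to 37917883, plus strand, 3 exons in its canonical transcript). In SNU1079 its mRNA measured 151 TPM under vehicle, 101 under BETp, 112 under mTORi and 82.8 under BETp + mTORi. In SSP25 it measured 261, 196, 167 and 136 TPM in the same order. In each line vehicle was highest, the combination lowest and each single agent between them. EIF4EBP1 fell by 0.43 ± 0.07 with BETp (limma adjusted p = 0.0403, lower in 4 of 4 pairs) and by 0.47 ± 0.07 with mTORi (adjusted p = 0.0428, lower in 4 of 4 pairs). Relative to the median gene these differences were -0.35 and -0.36. Less of this mRNA per cell and fewer cells that express it cannot be told apart in bulk RNA.

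The combination against vehicle gave the same single call. EIF4EBP1 fell by 0.90 ± 0.11 (limma adjusted p = 0.0335, 95% interval -1.17 to -0.63), a drop to 0.536 of its vehicle level and 0.71 below the median gene, while 1.81% of all tested genes were called (0.293% higher and 1.52% lower). Against vehicle alone the single agents gave -0.49 ± 0.11 for BETp (adjusted p = 0.372) and -0.53 ± 0.11 for mTORi (adjusted p = 0.413). None of the 10 genes passed in either of these comparisons, in which 0.00623% and 0.0125% of tested genes were called by limma. An unadjusted limma p under 0.05 was found for 1 and 3 of the 10, beside 1429 and 1658 of all 16060 tested genes. The combination departed from the sum of both single effects by 0.12 ± 0.16 (95% interval -0.25 to 0.50, adjusted p = 1.00), so neither a smaller nor a larger joint effect was shown. These calls were close to the threshold. Leaving out any 1 of the 8 libraries ended both averaged calls, with adjusted p from 0.0641 to 0.107 for BETp and from 0.0892 to 0.134 for mTORi, and ended the combination call except without either mTORi library. In every one of these fits the difference stayed below 0, at -0.49 to -0.37, -0.53 to -0.41 and -0.93 to -0.87. The share of mitochondrial genome transcripts moved with treatment too, with vehicle lowest (14.4% in SNU1079, 5.99% in SSP25) and the combination highest (19.2% and 10.1%) in each line, and 17.1% and 7.22% under BETp and 15.3% and 8.64% under mTORi. Rescaling without these transcripts gave -0.39 (adjusted p = 0.0547), -0.44 (0.0585) and -0.83 (0.0430).

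EIF4EBP2 encodes the second 4E-binding protein, 4E-BP2 (chromosome 10, 72163901 to 72188374, plus strand, 3 exons). Its mRNA measured 17.8 TPM under vehicle, 22.4 under BETp, 14.9 under mTORi and 18.0 under the combination in SNU1079, and 15.6, 19.4, 16.0 and 20.4 TPM in SSP25. It was higher with BETp in all 4 pairs, by 0.25 to 0.34, where EIF4EBP1 was lower in all 4. The averaged BETp difference of 0.30 ± 0.09 did not pass (limma adjusted p = 0.122, 95% interval 0.09 to 0.52). Under mTORi the lines went opposite ways. Both mTORi pairs of SNU1079 were lower and both of SSP25 higher, a pattern that 12.2% of tested genes showed, and the averaged difference was -0.11 ± 0.09 (adjusted p = 0.523).

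The balance between the 4E-binding protein mRNAs and EIF4E mRNA is given as ratios of TPM within a library, which multiplying a library by a single factor cannot alter, and without a test. EIF4EBP1 to EIF4E was 1.99 under vehicle, 1.57 under BETp, 1.78 under mTORi and 1.48 under the combination in SNU1079. In SSP25 the ratios were 2.83, 2.46, 2.60 and 1.96. The combination stood at 0.745 of the vehicle ratio in SNU1079 and at 0.691 in SSP25. The ratio of EIF4EBP1 to EIF4EBP2 moved further, from 8.51 with vehicle to 4.52, 7.54 and 4.61 in SNU1079 and from 16.7 to 10.1, 10.5 and 6.65 in SSP25. EIF4EBP1 mRNA thus remained the more abundant of the pair in all 8 libraries. The ratio of EIF4EBP2 to EIF4E was 0.234 with vehicle and 0.348, 0.236 and 0.322 with BETp, mTORi and the combination in SNU1079. In SSP25 it was 0.169, 0.243, 0.248 and 0.294 in the same order. The combination was thus above vehicle in both lines, but in SNU1079 BETp alone stood higher still.

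**Figure D3:**
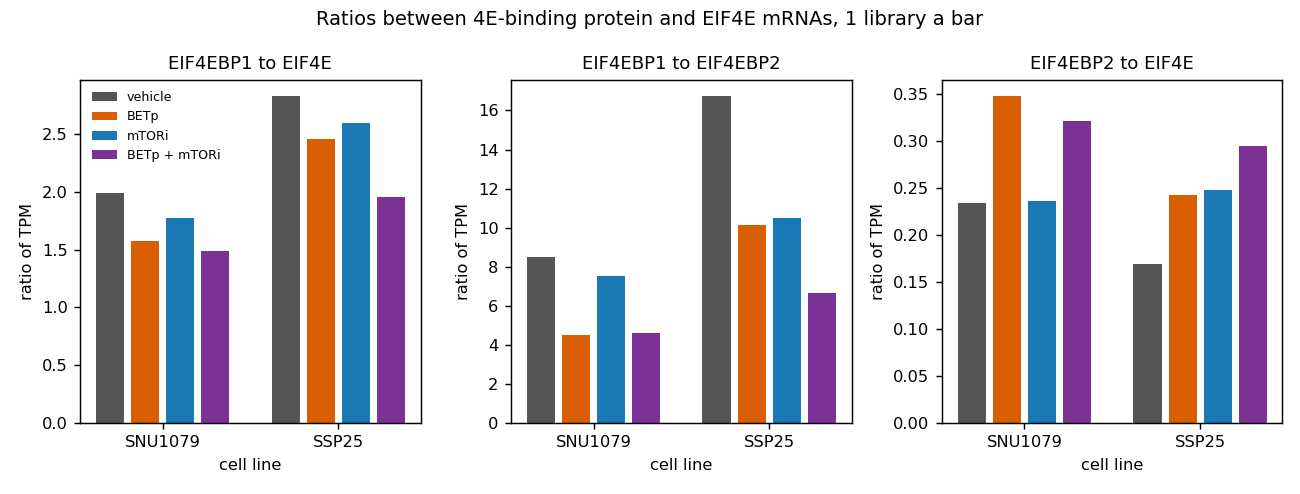
Ratio of TPM (axis from 0) between EIF4EBP1, EIF4EBP2 and EIF4E in each library, 1 bar a library, for vehicle, BETp, mTORi and BETp + mTORi in each line. In both lines the ratio of EIF4EBP1 to EIF4E was lowest with the combination, at 1.48 and 1.96, and the ratio of EIF4EBP1 to EIF4EBP2 was highest with vehicle, at 8.51 and 16.7.

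EIF4E encodes the cap-binding protein itself (chromosome 4, 99800427 to 99850284, minus strand, 7 exons). Its mRNA measured 76.0 TPM under vehicle, 64.5 under BETp, 63.3 under mTORi and 55.8 under the combination in SNU1079, and 92.2, 79.9, 64.4 and 69.4 TPM in SSP25. The vehicle library was highest in each line, and the combination was lowest in SNU1079 but not in SSP25. Under mTORi it was lower in 4 of 4 pairs, with an averaged difference of -0.29 ± 0.08 that did not pass (limma adjusted p = 0.0887, 95% interval -0.47 to -0.11). It was -0.18 relative to the median gene, -0.15 with quantile normalization and -0.16 with median-of-ratios scaling. The combination differed from vehicle by -0.42 ± 0.11 (adjusted p = 0.0868), and by -0.21 and -0.22 under these rescalings. Against vehicle mTORi alone gave -0.39 ± 0.11 (adjusted p = 0.417) and BETp alone -0.22 ± 0.11 (adjusted p = 0.624). BETp averaged over mTORi gave -0.13 ± 0.08 (adjusted p = 0.361). EIF4E2, which encodes 4EHP, a cap-binding relative that does not bind eIF4G well and is known for repressing translation (chromosome 2, 233415369 to 233448354, plus strand), measured 87.6, 72.2, 69.5 and 60.4 TPM in SNU1079 and 72.3, 66.2, 75.6 and 64.8 TPM in SSP25. It was lower with BETp in 4 of 4 pairs, at -0.20 ± 0.08 (adjusted p = 0.191). With mTORi both pairs of SNU1079 were lower, while those of SSP25 lay on either side of 0, and the averaged difference was -0.14 ± 0.08 (adjusted p = 0.363), or -0.023 relative to the median gene. EIF4E2 differed from vehicle by -0.34 ± 0.13 with the combination (adjusted p = 0.154).

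The helicase genes were not among those called. EIF4A1 and EIF4A2 encode closely similar DEAD-box helicases of eIF4F, and how reads that fit both were counted is not given in the sources used here. EIF4A1 (chromosome 17, 7476142 to 7482324, plus strand, 11 exons) measured 1163, 1194, 1255 and 1360.4 TPM in SNU1079 and 1139.8, 1191, 955 and 1088 TPM in SSP25, in the order vehicle, BETp, mTORi and combination. It was higher with BETp in 4 of 4 pairs by 0.10 ± 0.08 on average (limma adjusted p = 0.475). EIF4A2 (chromosome 3, 186500994 to 186507686, plus strand, 11 exons) measured 269, 268, 241 and 331 TPM in SNU1079 and 215, 234, 239 and 281 TPM in SSP25. The combination library was the highest of its line in both. EIF4A2 differed from vehicle by 0.34 ± 0.10 with the combination (adjusted p = 0.103), and by 0.20 ± 0.08 and 0.14 ± 0.08 in the averaged BETp and mTORi differences (adjusted p = 0.200 and 0.353). Its departure from additivity was 0.29 ± 0.14 (95% interval -0.05 to 0.63, adjusted p = 1.00). EIF4H, which stimulates the helicase (chromosome 7, 73588561 to 73611452, plus strand), lay between 204 and 233 TPM in SNU1079 and between 329 and 372 TPM in SSP25. Its averaged difference was -0.02 ± 0.05 for BETp (adjusted p = 0.837) and -0.13 ± 0.05 for mTORi, lower in 4 of 4 pairs (adjusted p = 0.219). The mTORi value was only -0.015 relative to the median gene and turned to 0.0059 with median-of-ratios scaling.

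Among the scaffolds, EIF4G1 is the main partner of eIF4E, EIF4G3 encodes a close relative, and EIF4G2, also called DAP5, lacks the eIF4E-binding region. EIF4G1 (chromosome 3, 184032283 to 184053146, plus strand, 33 exons) measured 199, 196, 167 and 155 TPM in SNU1079 and 274, 285, 242 and 261 TPM in SSP25. The 2 libraries with mTORi were the lowest of each line. Its averaged mTORi difference was -0.22 ± 0.06, lower in 4 of 4 pairs, and did not pass (limma adjusted p = 0.102). It was -0.11 relative to the median gene and -0.088 with median-of-ratios scaling. EIF4G3 (chromosome 1, 21132785 to 21503778, minus strand, 37 exons) measured 23.2, 23.0, 17.0 and 18.8 TPM in SNU1079 and 52.6, 51.7, 44.5 and 52.1 TPM in SSP25. It was lower with mTORi in 3 of 4 pairs, at -0.23 ± 0.09 (adjusted p = 0.169) and -0.12 relative to the median gene, and its BETp difference was 0.08 ± 0.09 (adjusted p = 0.606). EIF4G2 (chromosome 11, 10818597 to 10830487, minus strand, 22 exons) measured 217, 248, 211 and 223 TPM in SNU1079 and 569, 500.1, 498 and 429 TPM in SSP25. Its averaged mTORi difference was -0.15 ± 0.08, lower in 4 of 4 pairs (adjusted p = 0.313), or -0.038 relative to the median gene. For BETp the averaged differences of EIF4G1 and EIF4G2 were 0.01 ± 0.06 and -0.03 ± 0.08 (adjusted p = 0.963 and 0.842), and their sign changed with the library left out.

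Those near-zero averages stood over opposite directions in the lines. BETp was followed by more EIF4G2 mRNA in SNU1079, from 217 to 248 TPM without mTORi and from 211 to 223 TPM with it, and by less in SSP25, from 569 to 500.1 and from 498 to 429 TPM. The BETp difference of SSP25 minus that of SNU1079 was -0.34 ± 0.08 for EIF4G2 and did not pass over all genes (limma, unadjusted p = 0.00902, adjusted p = 0.266). EIF4G1 went the other way, lower with BETp in both SNU1079 pairs and higher in both SSP25 pairs, with a difference of 0.15 ± 0.09 (adjusted p = 0.551). Both BETp pairs of one line were opposite to both of the other in 10.2% of tested genes. With mTORi, EIF4A1 was higher in SNU1079, from 1163 to 1255 and from 1194 to 1360.4 TPM, and lower in SSP25, from 1139.8 to 955 and from 1191 to 1088 TPM. The mTORi difference of EIF4A1 was -0.34 ± 0.08 between the lines (unadjusted p = 0.00771, adjusted p = 0.244), that of EIF4EBP2 was 0.33 ± 0.13 (adjusted p = 0.362) and that of EIF4E2 was 0.31 ± 0.10 (adjusted p = 0.301). EIF4EBP1 was lower in both lines with both drugs, and its drug effects differed between the lines by 0.15 ± 0.10 for BETp (adjusted p = 0.604) and by -0.23 ± 0.10 for mTORi (adjusted p = 0.400). By limma 0 of 10 genes passed for either drug, and over all tested genes 0.00623% and 0% were called for BETp and mTORi. An unadjusted limma p under 0.05 was found for 1 and 2 of the 10, beside 1984 and 2282 of all 16060 tested genes.

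**Figure D4:**
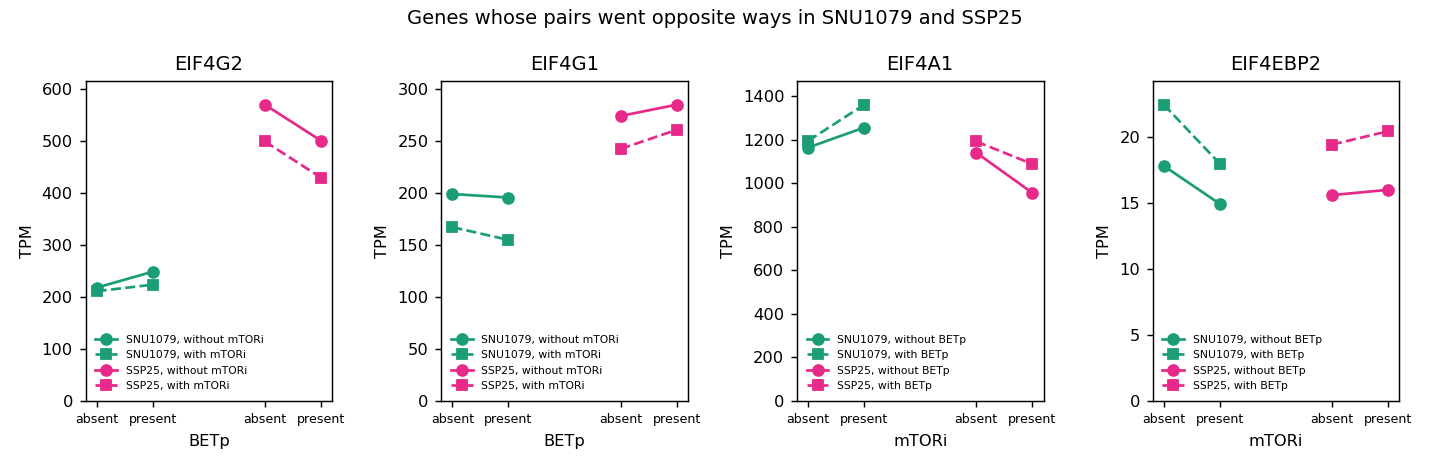
TPM (axes from 0) without and with BETp for EIF4G2 and EIF4G1, and without and with mTORi for EIF4A1 and EIF4EBP2. Each line joins a pair of libraries of the same cell line that differ only in that drug, solid without and dashed with the other drug. For EIF4G2 both SNU1079 pairs rise, to 248 and 223 TPM, and both SSP25 pairs fall, to 500.1 and 429 TPM.

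More of the 10 genes were called between the lines than for either drug. Here the 4 differently treated libraries of a line stood in as its replicates. The p-values therefore do not measure the spread between repeat cultures of a line. Of the 10, 6 were higher in SSP25 than in SNU1079 and 0 were lower past the threshold, in a comparison in which 75.6% of all tested genes were called, 36.6% higher and 39.1% lower. EIF4G3 and EIF4G2 differed most, at 1.26 ± 0.09 and 1.14 ± 0.08 (limma adjusted p = 3.65e-06 and 4.74e-06), followed by EIF4EBP1 at 0.75 ± 0.07, EIF4H at 0.66 ± 0.05 and EIF4G1 at 0.57 ± 0.06. With quantile normalization EIF4EBP1, EIF4H and EIF4G1 gave 0.49, 0.36 and 0.28 and were still called. On the linear scale EIF4G3 was 2.40-fold and EIF4G2 2.21-fold higher. EIF4G1, EIF4G2, EIF4G3 and EIF4H had no overlap between the lines, as was the case for 63.3% of tested genes. EIF4EBP1 was higher in SSP25 at each of the 4 treatments, although the SSP25 combination library, at 136 TPM, lay below the SNU1079 vehicle library, at 151 TPM. EIF4E passed narrowly, at 0.23 ± 0.08 (adjusted p = 0.0263), and its difference shrank to 0.02 with quantile normalization (adjusted p = 0.869) and to 0.09 without mitochondrial genome transcripts (adjusted p = 0.302). EIF4A1 and EIF4A2 were lower in SSP25 at each of the 4 treatments, as were 39.8% of tested genes, without passing, both at -0.19 ± 0.08 (adjusted p = 0.0598 and 0.0605). EIF4E2 at -0.04 ± 0.08 and EIF4EBP2 at -0.03 ± 0.09 were higher in SSP25 in 2 of 4 treatments and lower in the others (adjusted p = 0.635 and 0.802). The ratio of EIF4G1 to EIF4G3 was 8.24 to 9.81 in SNU1079 and 5.01 to 5.51 in SSP25. EPCAM and COL1A1 separated the lines as well, and the part of line identity in these differences was not tested.

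Other genes of the initiation pathway were followed in lists grouped by function, which were chosen with earlier results of these data known. The shares of all genes called were 1.82% (BETp), 1.05% (mTORi) and 1.81% (BETp + mTORi). An unadjusted limma p under 0.05 was far more common, in 3664 (BETp) and 3534 (mTORi) of all 16060 tested genes. Under BETp, 0 of 5 tested genes of the wider cap complex, 0 of 17 regulators, 0 of 13 eIF3 subunits and 0 of 7 nuclear cap-binding and decapping genes passed by limma (1, 2, 3 and 2 of them had an unadjusted p under 0.05), and 1 of 13 genes of eIF1, eIF2, eIF2B and eIF5 fell. That gene was EIF2S2, the beta subunit of the factor that carries the initiator tRNA, at -0.35 ± 0.06 (adjusted p = 0.0434). It also fell with mTORi, at -0.37 ± 0.06 (adjusted p = 0.0474), and with the combination, at -0.72 ± 0.10 (adjusted p = 0.0374). Its levels were 146, 111, 118 and 84.8 TPM in SNU1079 and 228, 184, 167 and 143 TPM in SSP25, with vehicle highest and the combination lowest in each line. Under mTORi 1 of 17 regulators fell as well, and 0 of the cap complex, eIF3 and decapping genes passed (1, 6 and 3 with an unadjusted p under 0.05). In the order cap complex, regulators, eIF3, eIF2 and decapping, list medians were -0.12, -0.02, -0.10, -0.10 and -0.10 under BETp and -0.05, -0.12, -0.02, -0.15 and -0.09 under mTORi, beside -0.08 and -0.11 over all tested genes. MKNK2, which encodes the kinase MNK2 that phosphorylates eIF4E, measured 120, 88.5, 61.1 and 52.9 TPM in SNU1079 and 86.1, 82.9, 57.5 and 56.7 TPM in SSP25. Its averaged mTORi difference was -0.70 ± 0.10 (adjusted p = 0.0428), the BETp difference -0.18 ± 0.10, which did not pass, and the combination -0.88 ± 0.14 (adjusted p = 0.0438). The combination also lowered DCPS, the scavenger enzyme that degrades free cap, to 4.95 from 9.71 TPM in SNU1079 and to 10.0 from 20.1 TPM in SSP25, at -0.89 ± 0.14 (adjusted p = 0.0438). Leaving out any 1 of the 8 libraries ended each of these calls, except that EIF2S2 kept its combination call without either mTORi library. Over all 16 alternatives of processing, these fits included, EIF2S2 lost its call in 14 (BETp), 15 (mTORi) and 11 (combination). MKNK2 lost its call in 14 (mTORi) and 15 (combination), and DCPS in 15 (combination). ATF4, a known activator of EIF4EBP1 transcription, gave -0.32 ± 0.11 for BETp and -0.16 ± 0.11 for mTORi and passed for neither (adjusted p = 0.146 and 0.426).

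Between the lines, beside 36.6% of all tested genes called higher and 39.1% called lower, 1 of 5 wider cap complex genes was higher in SSP25 and 3 lower, 3 of 17 regulators were higher and 8 lower, 4 of 13 eIF3 subunits higher and 5 lower, 5 of 13 genes of eIF1, eIF2, eIF2B and eIF5 higher and 4 lower, and 5 of 7 nuclear cap-binding and decapping genes higher and 0 lower. List medians in that order were -0.50, -0.26, -0.13, 0.0017 and 0.55, beside -0.05 over all tested genes. The helicase cofactor EIF4B was lower in SSP25, at -1.31 ± 0.06, where EIF4H was higher. EIF4A3, the helicase of the exon junction complex, was higher at 0.59 ± 0.06. The kinase gene MKNK1 was higher at 1.29 ± 0.11 and the helicase gene DDX3X at 1.24 ± 0.07, while PPM1G, a phosphatase known to act on 4E-BP1, was lower at -0.89 ± 0.07. Among the lower calls, EIF4E3, EIF4EBP3 and PAIP2B passed the filter only through SNU1079, where they were higher. The size of a difference at such low levels depends on the pseudocount. EIF4E3 lay between 1.14 and 1.85 TPM in SNU1079 and between 0.48 and 0.97 TPM in SSP25, with a difference of -0.50. EIF4EBP3, the third 4E-binding protein gene, lay between 0.86 and 2.16 TPM in SNU1079 and between 0 and 0.38 TPM in SSP25, with a difference of -1.12 that became -2.88 with a pseudocount of 0.1. PAIP2B, an inhibitor of poly(A)-binding protein, lay between 3.12 and 3.87 TPM and between 0.17 and 0.48 TPM, with -1.81 and -3.30. Of the eIF3 subunits EIF3M and EIF3F stood at 1.26 and 0.82, and EIF3E and EIF3H at -0.87 and -0.86. In the eIF2 list EIF1AX and EIF2S3 stood at 1.03 and 0.84, and EIF2B2 and EIF1 at -0.96 and -0.65. DCP1B and DCPS of the decapping list were higher at 1.33 and 0.92. MYC was lower in SSP25 at -1.58 ± 0.08 and ATF4 higher at 0.40 ± 0.11.

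The genes whose levels followed those of EIF4E, EIF4EBP1, EIF4A1 and EIF4G1 most closely over the 8 libraries, after the mean of each line was subtracted, were ranked by Pearson correlation among 10643 genes with a mean of at least 5 TPM. For EIF4EBP1 they were HAX1 (r = 0.993), HTATSF1 (0.992) and OLA1 (0.987). HAX1 measured 147, 115, 126 and 101 TPM in SNU1079 and 168, 133, 119 and 101 TPM in SSP25, so it too was highest with vehicle and lowest with the combination. For EIF4E they were SAP18 (0.990), PSPH (0.988) and CH507-9B2.5 (0.984), for EIF4G1 MRPS25 (0.995), DAG1 (0.994) and NOC2L (0.990), and for EIF4A1 AP4S1 (0.957), ZRANB1 (0.952) and CEP89 (0.946). All of these share the same 8 libraries and were the highest of many correlations. Among the 10 genes themselves EIF4E and EIF4EBP1 were the second closest pair, at r = 0.91, while EIF4EBP1 and EIF4A2 were the most opposed, at -0.76.

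Reads can be shared with other genes at several of these loci. Of 31 pseudogenes named after the eIF4 genes, 19 were at 0 in every library, 27 never reached 1 TPM, and the highest value was 4.54 TPM, for EIF4HP1. The readthrough gene SENP3-EIF4A1 (chromosome 17, 7466604 to 7482033), which runs into EIF4A1 on the same strand, reached at most 2.52 TPM beside 955 TPM or more of EIF4A1, and its upstream partner SENP3 ran from 53.7 to 82.9 TPM. Small nucleolar RNAs lie inside EIF4A1, EIF4A2, EIF4G1 and EIF4G2. SNORD10, in EIF4A1, and SNORD97, in EIF4G2, each have 1 annotated locus and were above 0 in 2 and 1 of 8 libraries. SNORD2 and SNORA81, in EIF4A2, and SNORD66, in EIF4G1, were at 0 in every library. SNORA63, SNORA4 and SNORA48 reached 58.1, 18.1 and 26.0 TPM, and since SNORA63 has 13 annotated loci, SNORA4 has 5 and SNORA48 has 13, such values cannot be assigned to the host gene. SNORA67, which the annotation used here does not place inside these genes, reached 48.6 TPM. Of the 11 RNAs of this list, SENP3 included, 6 were tested and 0 passed for either averaged drug effect by limma. An unadjusted limma p under 0.05 was found for 1 (BETp) and 2 (mTORi), beside 3664 and 3534 of all 16060 tested genes. Between the lines 4 were called, 2 higher and 2 lower, beside 36.6% and 39.1% of all tested genes. Of these SENP3 was higher in SSP25, at 0.30 ± 0.07, and the other calls, SNORA4, SNORD10 and SENP3-EIF4A1, had passed the filter only through the line in which they were high.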

How the data were processed

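Libraries were strand-specific (dUTP) and, per the labels, referred to GRCh37. The values deposited are TPM per gene, in 1 table for each cell line. DESeq2 and edgeR are named in the submitters' processing notes. Annotation and aligner were not given in the sources used here. Values were read as log2(TPM + 1), and a gene was tested where 2 or more libraries had at least 1 TPM. The linear models used limma 3.58.1 in R 4.3.3 (eBayes with trend, Benjamini-Hochberg adjustment over 16060 genes, calls at 0.05, two-sided) and tested on simulated data. Averaged drug effects and the line difference came from a model of line, BETp and mTORi (4 residual degrees of freedom), comparisons with vehicle and additivity from line and treatment (3), and differences between lines in a drug effect from line-by-drug terms (2). Cell line was the pairing, as each treatment had 1 library in each line. Deviations from the treatment means correlated at 0.911 to 0.936 across genes between libraries of a line. With 1 library per line in each mean, these deviations carry the difference between the lines and cannot test a shared culture. Positions are those of GENCODE 44 on GRCh37. The 10 genes and the lists were chosen with earlier results of these data known. All 10 were named, with up to 2 called genes in each direction from each list, and EIF4E3, MYC and ATF4. The 3 genes most like each of EIF4E, EIF4EBP1, EIF4A1 and EIF4G1 were named too. The alternatives tried were no filter, a 5 TPM filter, a pseudocount of 0.1, 3 rescalings, robust eBayes, no block, and leaving out each library.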

Additional observations from a re-analysis of the deposited data

Results flagged for a closer look

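For 4 genes both pairs of one line went one way and both pairs of the other line the opposite way, and the difference between the lines was tested with a line-by-drug term in limma. The BETp effect of SSP25 minus that of SNU1079 was -0.34 ± 0.08 for EIF4G2 (unadjusted p = 0.00902, adjusted p = 0.266) and 0.15 ± 0.09 for EIF4G1 (adjusted p = 0.551). The mTORi effect differed by -0.34 ± 0.08 for EIF4A1 (unadjusted p = 0.00771, adjusted p = 0.244) and by 0.33 ± 0.13 for EIF4EBP2 (adjusted p = 0.362). None of the 4 passed over all genes, and the pattern was present in 10.2% of tested genes for BETp and in 12.2% for mTORi. With 1 library for each line and treatment, a response of a line and a difference between single cultures cannot be told apart.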

How the results depend on the processing

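Of 1255 recomputed values for single genes over 79 results, 1082 kept their direction and their side of the threshold, 134 lost a call, 7 gained one and 32 changed sign. EIF4EBP1 was the only one of the 10 genes behind each drug call, and its difference stayed below 0 in every alternative. The number of the 10 genes called went from 1 to 0 for BETp, mTORi and the combination with no filter, with quantile normalization, with median-of-ratios scaling, with robust eBayes and with no replicate block. It also went to 0 for both averaged effects without mitochondrial genome genes and for mTORi with a pseudocount of 0.1. Leaving out 1 library gave 0 to 0 for the averaged effects and 0 to 1 for the combination. Without the cell line block, the pairing of the design, EIF4EBP1 kept -0.43, -0.47 and -0.90 with an adjusted p of 1.00 in each. Quantile normalization gave -0.35, -0.34 and -0.69. Its adjusted p ran from 0.0302 to 1.00, 0.0305 to 1.00 and 0.0234 to 1.00 over the alternatives. Between the lines 5 to 7 of the 10 were called. EIF4E lost its call in 9 of 16 alternatives, among them those without the BETp, combination or vehicle library of SSP25 and the BETp or combination library of SNU1079. EIF4A1, EIF4A2 and EIF4E2 gained one in 3, 3 and 1.

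The signs that changed belonged to differences that did not pass the test. The farthest from 0 were -0.14 for EIF4E2 and -0.13 for EIF4H with mTORi, where the median gene lay at -0.11. The departure of EIF4EBP1 from additivity, at 0.12, and EIF4EBP2 with mTORi, at -0.11, came next. For BETp, quantile normalization, removal of mitochondrial genes and median-of-ratios scaling gave 0.043, 0.0071 and 0.037 for EIF4G2 and 0.045, 0.017 and 0.046 for EIF4H. For mTORi, quantile normalization gave 0.0017 for EIF4E2 and 0.021 for EIF4EBP2, removal of mitochondrial genes 0.012 for EIF4A1, and median-of-ratios scaling 0.018 for EIF4EBP2, 0.11 for EIF4A1 and 0.0059 for EIF4H. With quantile normalization and median-of-ratios scaling, drug differences of the other genes moved by more than 1.5 times in several cases, as -0.20 to -0.12 and -0.14 for EIF4E2 and -0.13 to -0.055 and -0.059 for EIF4E with BETp, 0.14 to 0.22 and 0.28 for EIF4A2 and -0.23 to -0.099 and -0.10 for EIF4G3 with mTORi, and 0.19 to 0.41 and 0.38 for EIF4EBP2 and -0.34 to -0.12 and -0.14 for EIF4E2 with the combination. Between the lines median-of-ratios scaling gave 0.0068 for EIF4EBP2. Leaving out 1 library gave -0.036 to 0.053 for EIF4G1, -0.10 to 0.027 for EIF4G2 and -0.044 to 0.0037 for EIF4H with BETp, -0.081 to 0.042 for EIF4A1 with mTORi, -0.087 to 0.014 for EIF4E2 and -0.080 to 0.018 for EIF4EBP2 between the lines, and -0.0082 to 0.25 for the departure of EIF4EBP1 from additivity.

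Calls over all genes moved too. BETp gave 292 (74 higher, 218 lower), 175 with quantile normalization (112 higher, 63 lower), 119 with median-of-ratios scaling (64 higher, 55 lower), 476 with a filter at 5 TPM, 21 with no filter and 74 with robust eBayes. mTORi gave 168 (26 higher, 142 lower), 9 (3 higher, 6 lower), 56 (42 higher, 14 lower), 483, 2 and 1 in the same order. The combination gave 291 (47 higher, 244 lower), 21 (12 higher, 9 lower), 29 (14 higher, 15 lower), 657, 2 and 9. Without the block all 3 gave 0. A pseudocount of 0.1 gave 202, 18 and 86, and removal of mitochondrial genes 155, 49 and 89. Leaving out 1 library gave 37 to 227, 1 to 7 and 0 to 145. The cause of these shifts was not tested. TPM keep no depth, and with 1 library per line and treatment the precision of every value rests on the model.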
